A study of Mus musculus with 20 samples.

Results

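The AP-1 family was followed through the first days of reprogramming of mouse fibroblasts. The members were chosen by name and not by a cut on their values, but with earlier results of these data known. They are Fos, Fosb, Fosl1, Fosl2, Jun, Junb, Jund, Atf3 and Maff, which are 9 of the 15757 genes in the table. All 9 were found, and 0 of them were listed at 0 in any library. The starting cells were passage 2 fibroblasts from embryos of the OG2 line, an Oct4-GFP reporter mouse. They were infected with retroviruses and kept in iCD1 medium. In the shDdx10 arm, called the knockdown here, they received OSKM (Oct4, Sox2, Klf4 and Myc) with shRNA to Ddx10, which encodes an RNA helicase that acts in ribosome assembly. In the shLuci arm, the control, they received OSKM with an shRNA labelled as the knockdown control. Every group therefore carries OSKM, and no group of uninfected cells was analysed here. Each arm was sampled at days 0, 1, 3, 5 and 7 with 2 libraries a day, giving 10 groups and 20 libraries. Whether 1 or several Ddx10 shRNAs were used is not clear from the labels. No rescue of Ddx10 is described, so that the loss of Ddx10 and other effects of the shRNA cannot be told apart.

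AP-1 is a transcription factor made of pairs of basic leucine zipper proteins. Jun proteins pair with each other or with Fos proteins, which cannot pair among themselves, and the pairs bind a short DNA element named TRE after its response to a phorbol ester. Atf3 belongs to the same protein class and binds the related cyclic AMP response element, CRE, while Maff is a small Maf protein that lacks a transactivation domain. Several members are immediate early genes, which serum and growth factors induce within minutes through MAP kinases, and in fibroblasts AP-1 is known to hold open many enhancers of the somatic state.

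The promoters of Fos, Jun, Junb and Maff are shown because differences between the arms described below concern these genes and because Jun, Junb and Maff had close time courses. Each line gives the 100 bases before a transcription start site as RefSeq annotates it (GRCm38.p6), read 5′ to 3′ on the gene's strand. Capitals mark a CRE-type element or a CRE core, and Junb has neither in its stretch. The stretches are chr12:85473790-85473889 (plus strand), chr4:95052223-95052322 (minus strand), chr8:84978749-84978848 (minus strand) and, for the second of 3 annotated Maff starts, chr15:79347420-79347519 (plus strand).
Fos: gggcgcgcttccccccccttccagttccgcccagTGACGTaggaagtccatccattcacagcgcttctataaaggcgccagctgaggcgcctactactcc
Jun: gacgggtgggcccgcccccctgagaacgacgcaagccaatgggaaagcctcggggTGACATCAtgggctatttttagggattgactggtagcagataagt
Junb: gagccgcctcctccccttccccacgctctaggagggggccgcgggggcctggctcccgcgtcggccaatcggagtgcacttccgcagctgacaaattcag
Maff: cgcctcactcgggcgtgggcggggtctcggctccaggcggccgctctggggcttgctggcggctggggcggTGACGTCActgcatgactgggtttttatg

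Windows of 250 bases before to 50 bases after each start were searched on both strands for the members, of which Fosl1 has no entry in that table. A CRE-type element, TGACNTCA, was found in Jun at 45 bases before the start (TGACATCA) and in Maff at 29 bases before the second start (TGACGTCA) and 45 before the third (TGACATCA). The CRE core TGACGT was found in Fos at 66 bases and in Atf3 at 8 bases before the start, and in Maff it lies inside the CRE-type element. The TRE, TGANTCA, and the serum response element known as the CArG box had no match in these windows, which says only that the letters are not in them. Among 32851 mouse promoter windows of the same length, 8.834% held the CRE-type element, 7.513% the core, 7.808% the TRE and 1.629% the CArG box.

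Normalized read counts summed to between 15700000 and 21300000 per library, and the spacing of the low values gives depths of about 12000000 to 23700000 reads. The sums followed the day, with 20100000 to 21300000 at day 0 and 15700000 to 15800000 at day 7. Replicates correlated at r = 0.981 to 0.989 across genes. Typical genes differed between replicates by 0.252 on the log2 scale in the day 1 controls (median, absolute) and by 0.118 to 0.162 in the other groups. The first control library of day 1 in particular changes several results of the members given below. The lowest depth, about 12000000, was that of the second control library of day 1. Ddx10 itself stood at 255 to 530 in the knockdown and at 500 to 921 in the control, below both controls on each day. Its log2 difference varied with the day: -0.69 at day 0, -1.58 at day 1, -1.31 at day 3, -0.79 at day 5 and -0.62 at day 7. The mean over the days was -0.999 (SE 0.05, limma adjusted p = 5.85e-08). The fibroblast genes of the table were high and the epithelial and pluripotency genes low at day 0. All 16 of the low set had risen by day 7 in both arms (36.2% of all genes higher in the knockdown, 38.6% in the control).

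All values below are normalized read counts, and tests are limma on log2(value + 1) with p-values adjusted over 15757 genes. "Rose", "fell", "higher" and "lower" without values are used for an adjusted p under 0.05. In bulk RNA, fewer cells of a type and less RNA per cell cannot be told apart.

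In the control arm most members declined from day 0. Fos rose first, at days 1 and 3, and Fosb was called lower only from day 5. Fosl1 rose at day 1, a call that 1 library decides, and Jund fell and returned. At day 1, 2 of 9 members had risen and 6 had fallen, against 28.3% of all genes higher and 26.7% lower. By day 3, 1 had risen and 6 had fallen (34.9% of all genes higher, 31.3% lower). Falls reached 8 of 9 at day 5, with no rise (37.7% higher, 32.5% lower), and 8 of 9 at day 7, again with no rise (38.6% higher, 33.7% lower). The median log2 change of the members was -0.80 at day 1, -0.59 at day 3, -1.84 at day 5 and -2.10 at day 7, with medians of all genes of 0.01, 0.07, 0.09 and 0.09. Quantile scaling moved the median of all genes by -0.13 at day 3 and -0.17 at days 5 and 7 and left the members' medians at -0.34, -1.54 and -1.79.

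**Figure D1:**
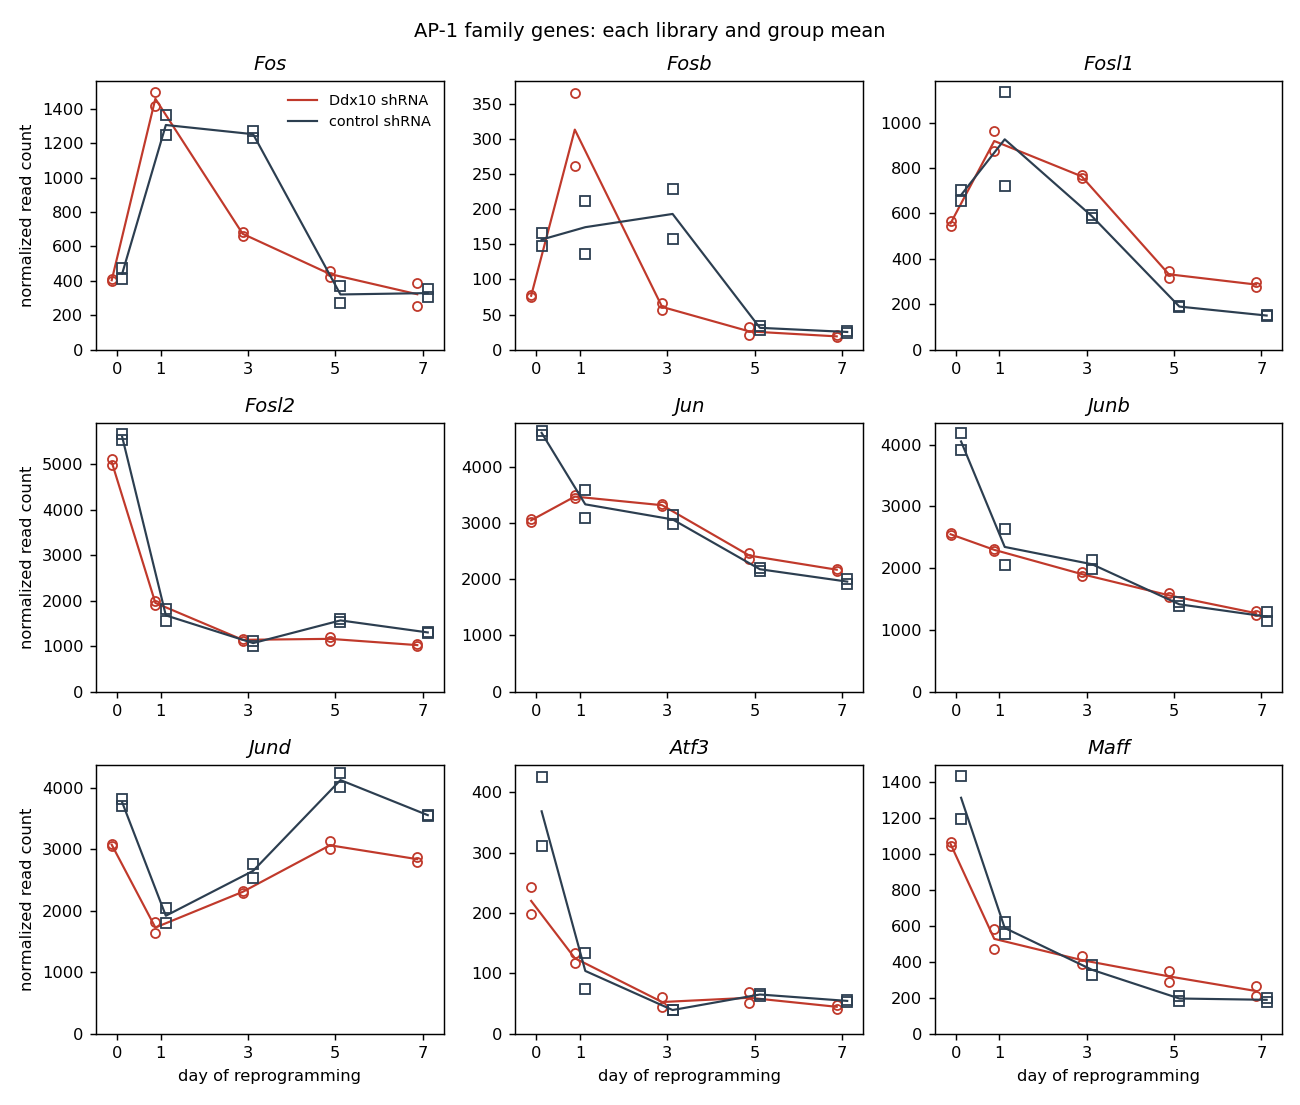
Normalized read counts of the 9 members against the day of reprogramming, with open circles for the Ddx10 shRNA libraries, open squares for the control shRNA libraries and lines through the means of 2. Fos is high at day 1 in both arms. At day 3 it stays near that level in the control, while in the knockdown it is lower but still above day 0. Fosl2, Atf3 and Maff drop after day 0, and Jund dips at day 1 and returns by day 5.

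In the knockdown arm 4 members had risen and 4 had fallen by day 1 (25.5% of all genes higher, 24.6% lower). By day 3 there were 2 rises and 5 falls (31.9% higher, 28.1% lower). Neither later day had a rise, and 7 members had fallen at day 5 (34.3% higher, 29.9% lower) and 7 at day 7 (36.2% higher, 30.9% lower). The members' median log2 change was -0.15, -0.41, -0.74 and -1.005 at days 1, 3, 5 and 7.

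Fos, the founding Fos protein and an immediate early gene, had 398 and 408 in the knockdown libraries of day 0, against 475 and 408 in the controls. At day 1 it had 1499 and 1418 in the knockdown and 1361 and 1250.1 in the control. At day 3 the knockdown libraries held 661 and 685, against 1272 and 1233 in the controls. Both arms were thus high at day 1, and at day 3 the knockdown had come most of the way down while the control libraries stayed near their day 1 level. By day 5 Fos was at 457 and 422 in the knockdown and 274 and 368 in the control, and at day 7 at 389 and 255 in the knockdown and 306 and 351 in the control. The log2 change from day 0 to day 1 was 1.85 in the knockdown (SE 0.16, limma adjusted p = 2.06e-07) and 1.56 in the control (SE 0.16, limma adjusted p = 8.77e-07). From day 0 to day 3 it was 0.74 in the knockdown (adjusted p = 0.00107) and 1.51 in the control (adjusted p = 7.25e-07). In the control Fos ended below its start, by -0.47 at day 5 and -0.42 at day 7 (limma adjusted p = 0.0173 and 0.0285). In the knockdown the day 7 change of -0.36 was not called (adjusted p = 0.0658), but it was after quantile scaling (-0.49, 0.0233), without the first knockdown library of day 7 (-0.66, 0.00202) and without either control library of day 5 (0.0475 and 0.0477). The control's day 5 fall was not called without the first control library of day 0 (adjusted p = 0.127) or of day 5 (0.228), and the day 7 fall without the first control library of day 0 (0.179) or of day 7 (0.169) or with library weights (0.0518).

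Fosb, a close relative of Fos, had a similar course in the knockdown. The knockdown libraries had 75.4 and 78.2 at day 0, 365 and 262 at day 1, 65.8 and 55.9 at day 3, 20.3 and 31.6 at day 5, and 20.3 and 17.4 at day 7. The control libraries had 147 and 166 at day 0, 212 and 137 at day 1, 158 and 229 at day 3, 33.6 and 28.5 at day 5, and 23.9 and 26.4 at day 7. At day 1 Fosb had risen in the knockdown by 2.00 on the log2 scale (SE 0.27, limma adjusted p = 1.56e-05), and the change in the control was 0.12 (SE 0.27, adjusted p = 0.729). The difference between these changes was 1.88 (SE 0.38) and missed the threshold at a limma adjusted p of 0.0524, with 0.0114 to 0.0497 in 7 of the alternative fits. By day 7 Fosb had fallen by 1.97 in the knockdown and by 2.59 in the control.

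Fosl1, also called Fra-1, is a Fos protein without the strong activation domain of Fos that persists after growth signals. It had 545 and 568 in the knockdown and 657 and 705 in the control at day 0. At day 1 the values were 962 and 876 in the knockdown and 1134 and 719 in the control, so that the control libraries lay further apart than the arms. At day 3 it had 769.7 and 757 in the knockdown and 593 and 581 in the control. At day 5 the knockdown held 317 and 347, against 189.2 and 189.9 in the control, and at day 7 275 and 298, against 153 and 147. From day 3 on, every knockdown library lay above both controls of its day. The rise from day 0 to day 1 was 0.72 in the knockdown (SE 0.15, limma adjusted p = 0.000766). In the control it was 0.41 (SE 0.15, limma adjusted p = 0.0280), a call that 1 library decides: without the first control library of day 1 the change was 0.08 (adjusted p = 0.557), and without the second 0.74. It was also lost without either control library of day 0 (adjusted p = 0.129 and 0.0541), with library weights (0.0580) and in a fit of the compared libraries alone (0.194). At day 3 Fosl1 was still above its start in the knockdown (0.46, limma adjusted p = 0.0141), a call lost without the first knockdown library of day 0 (0.0666) or either of day 3 (0.0601 and 0.0503), and not called in the control (-0.21). The change from day 0 to day 7 was -0.96 in the knockdown and -2.17 in the control.

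Fosl2, or Fra-2, another Fos protein without that domain, dropped early and stayed low. It had 5127 and 4983 in the knockdown and 5537 and 5676 in the control at day 0, 1994 and 1913 in the knockdown and 1810.2 and 1549 in the control at day 1, and 1163 and 1119 in the knockdown and 1014 and 1124 in the control at day 3. At day 5 it was 1212 and 1113 in the knockdown and 1531 and 1607 in the control, and at day 7 1051 and 999 in the knockdown and 1308 and 1299.6 in the control. The control libraries of days 5 and 7 lay above those of day 3, while the knockdown libraries of day 7 lay below those of days 3 and 5. Its log2 change to day 3 was -2.15 in the knockdown (SE 0.08, limma adjusted p = 3.02e-12) and -2.39 in the control (SE 0.08, limma adjusted p = 7.00e-13).

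Jun, the founding Jun protein and the main activating partner, had 3021 and 3072 in the knockdown and 4637 and 4564 in the control at day 0. Later the arms were close, with 3495 and 3441 in the knockdown and 3577 and 3083 in the control at day 1, and 3332 and 3297 in the knockdown and 3139.7 and 2984 in the control at day 3. At day 5 Jun had 2365 and 2472 in the knockdown and 2205 and 2148 in the control, and at day 7 2149 and 2187 in the knockdown and 1916 and 1997 in the control. The control therefore declined from its first sample, whereas the knockdown began lower and held its level until day 3. From day 0 to day 1 Jun rose by 0.19 in the knockdown (SE 0.07, limma adjusted p = 0.0306) and fell in the control (log2 -0.47, SE 0.07, limma adjusted p = 2.48e-05). The small knockdown rise lost its call without any of the 4 knockdown libraries of those days (limma adjusted p = 0.0787 to 0.117). The knockdown change to day 3 was not called (0.12, adjusted p = 0.132) but was after quantile scaling (0.26, 0.00399). By day 7 the change was -0.49 in the knockdown and -1.23 in the control.

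Junb, a weaker activator that can oppose Jun, had 2563 and 2536 in the knockdown and 3909 and 4196 in the control at day 0, and 2279 and 2316 in the knockdown and 2638 and 2050.2 in the control at day 1. At day 7 it was down to 1306 and 1235 in the knockdown and 1143 and 1288 in the control. Days 3 and 5 lay between these, with group means of 1905 ± 36.7 and 1561 ± 44.7 in the knockdown and 2064 ± 103 and 1415 ± 44.6 in the control (SD, n = 2 each).

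Jund, the Jun protein that most cell types make steadily, moved unlike the others. It had 3060.2 and 3089 in the knockdown and 3711 and 3815 in the control at day 0, and 1813 and 1643 in the knockdown and 2041 and 1796 in the control at day 1. It was back at 3127 and 3002 in the knockdown and 4013 and 4237 in the control at day 5, and ended at 2797 and 2881 in the knockdown and 3547 and 3562 in the control at day 7. Day 3 lay between, at 2308 ± 30.0 in the knockdown and 2649 ± 163 in the control (SD, n = 2 each). The fall to day 1 was called in both arms (log2 -0.83 in the knockdown and -0.97 in the control). The change to day 7, -0.12 in the knockdown and -0.08 in the control, was called in neither, and its direction depends on the scaling: after quantile scaling it was 0.10 in the knockdown and 0.24 in the control, where it was called (limma adjusted p = 0.00987). Likewise the change to day 5 was -0.0049 in the knockdown and 0.13 in the control as deposited, and after quantile scaling 0.19 in the knockdown (limma adjusted p = 0.0340) and 0.40 in the control (0.000175).

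Atf3, a stress-induced repressor, and Maff were highest at day 0 and fell in both arms. Atf3 had 243 and 198 in the knockdown and 312 and 426 in the control at day 0, and 48.3 and 41.1 in the knockdown and 52.4 and 56.6 in the control at day 7. Its fall to day 1 was -0.80 in the knockdown (limma adjusted p = 0.0174) and -1.86 in the control (1.94e-05), and the knockdown call was lost without the first knockdown library of day 0 (adjusted p = 0.117) or of day 1 (0.0936). Maff had 1041 and 1067 in the knockdown and 1429 and 1193 in the control at day 0. By day 5 it was at 288 and 349.7 in the knockdown and 211 and 181 in the control, and by day 7 at 210.2 and 265 in the knockdown and 200.4 and 177 in the control. Between the arms Maff was not called at day 7 (log2 0.32, SE 0.15, limma adjusted p = 0.275).

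The knockdown was then set against the control at each day, the contrast that the series' design names. At day 0 the Jun genes and Fosb were lower in the knockdown. Of 9 members 4 were lower and 0 higher, against 0.812% of all genes lower and 2.49% higher. Junb had a log2 difference of -0.67 (SE 0.10, limma adjusted p = 0.00294), Jun of -0.59 (SE 0.07, 0.000338), Jund of -0.29 (SE 0.07, 0.0381) and Fosb of -1.02 (SE 0.27, 0.0498). The median of the members was -0.31 with a median of all genes of -0.02. The calls of Fosb and Jund stand close to the threshold and were lost in 17 and 16 of 27 alternative fits, among them those without any 1 of the 4 libraries of day 0 (adjusted p = 0.107 to 0.232 for Fosb and 0.0924 to 0.205 for Jund). Jun and Junb were lost in 1 of 27, the fit of the 4 day 0 libraries alone (limma adjusted p = 0.186 for both), which called 2 genes in the whole table.

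**Figure D2:**
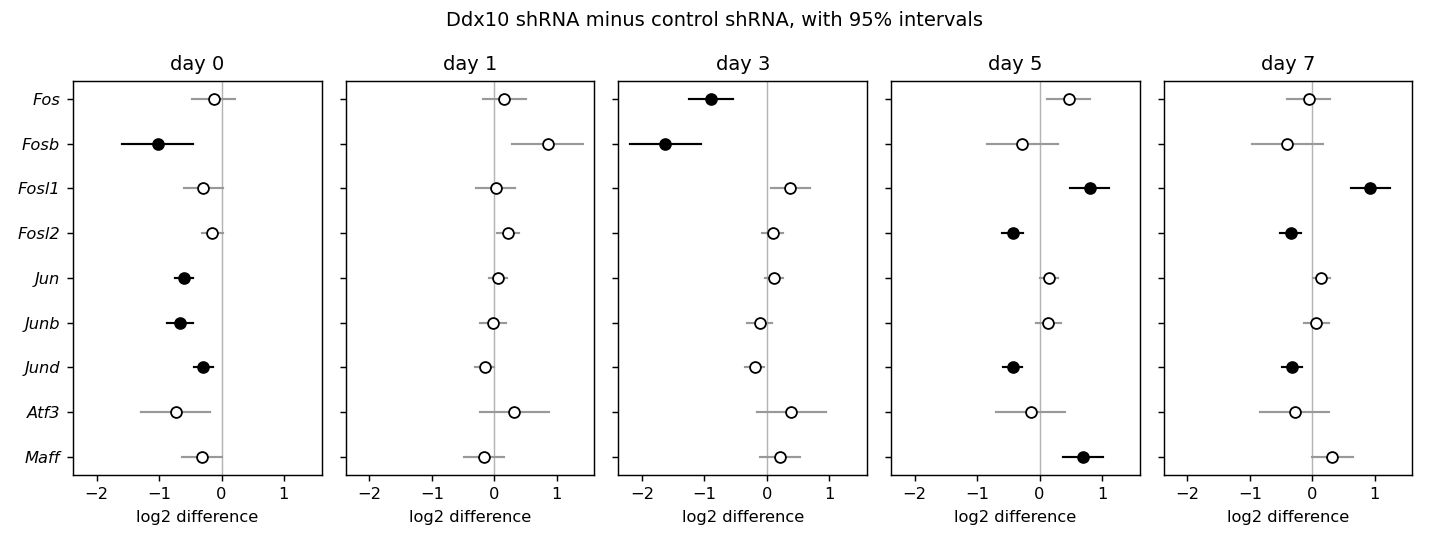
Log2 difference, Ddx10 shRNA minus control shRNA, of each member by day, with 95% intervals from the fit of all 20 libraries, and filled points for a limma adjusted p under 0.05. Negative values prevail at day 0, Fos and Fosb stand at -0.89 and -1.63 at day 3, and at days 5 and 7 Fosl1 lies above 0 while Fosl2 and Jund lie below it.

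At day 1 no member passed the test, with 0 higher and 0 lower by limma (0.0254% of all genes higher, 0.121% lower) and 2 of 9 at an unadjusted p under 0.05. Those were Fosb at 0.86 (SE 0.27, adjusted p = 0.178) and Fosl2 at 0.22 (SE 0.08, adjusted p = 0.243). Without the first control library of day 1, Fosl2 was called at 0.33 (limma adjusted p = 0.0447).

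At day 3 Fos and Fosb were lower in the knockdown, and the Jun genes were not called. That is 2 of 9 lower and 0 higher, with 2.25% of all genes lower and 2.51% higher. Fos stood at 673 ± 16.9 in the knockdown and 1252 ± 27.3 in the control (SD, n = 2 each; log2 -0.89, SE 0.16, limma adjusted p = 0.00771). Fosb stood at 60.9 ± 6.99 in the knockdown and 193 ± 50.2 in the control (SD, n = 2 each; log2 -1.63, SE 0.27, limma adjusted p = 0.00466). The call of Fos was lost without the first or second knockdown library (adjusted p = 0.0728 and 0.0504) or the second control library of that day (0.0564), and that of Fosb without the second control library (0.0629). Fosl1 was at 0.38 (SE 0.15, adjusted p = 0.164) and passed with library weights, in the day 3 libraries alone and without either control library of day 1 (adjusted p = 0.0151 to 0.0405).

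At day 5 the members split. Fosl1 and Maff were higher in the knockdown and Fosl2 and Jund lower, which makes 2 higher and 2 lower of 9 (5.83% of all genes higher, 2.9% lower). Fosl1 averaged 332 ± 20.8 in the knockdown and 189.6 ± 0.50 in the control (SD, n = 2 each; log2 0.80, SE 0.15, limma adjusted p = 0.00272). Maff averaged 319 ± 43.5 in the knockdown and 196 ± 21.0 in the control (SD, n = 2 each; log2 0.70, SE 0.15, limma adjusted p = 0.00875). Jund was at -0.43 (SE 0.07, limma adjusted p = 0.00158) and Fosl2 at -0.43 (SE 0.08, limma adjusted p = 0.00277). The calls of Fosl1, Fosl2 and Jund were kept in all 27 alternative fits, with Fosl1 between 0.74 and 0.90. Maff lost its call without the second knockdown (adjusted p = 0.0993) or the second control library of day 5 (0.0830). Fos was at 0.47 (SE 0.16, adjusted p = 0.0932) and passed at 0.68 without the second control library of day 5 (0.0398) and without either knockdown library of day 7 (0.0350 and 0.0345).

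At day 7 Fosl1 was again higher and Fosl2 and Jund again lower in the knockdown. This is 1 higher and 2 lower of 9 (4.65% of all genes higher, 1.52% lower). Fosl1 averaged 287 ± 16.4 in the knockdown and 150.1 ± 4.61 in the control (SD, n = 2 each), a log2 difference of 0.93 (SE 0.15, limma adjusted p = 0.00133) that was called in all 27 alternative fits. Fosl2 at -0.35 (SE 0.08, limma adjusted p = 0.0155) and Jund at -0.32 (SE 0.07, 0.0133) kept their direction but lost their calls without any 1 of the 4 libraries of day 7 (adjusted p = 0.0507 to 0.165 and 0.0772 to 0.0949). As the mean of all days, 1 member was higher and 3 were lower (10.3% of all genes higher, 7.46% lower). These were Fosl1 at 0.37 (SE 0.07, adjusted p = 0.00122), Fosb at -0.49 (SE 0.12, 0.00964), Jund at -0.28 (SE 0.03, 4.16e-05) and Fosl2 at -0.12 (SE 0.04, 0.0272). The last was lost in 8 of 26 alternative fits, each without 1 library (adjusted p = 0.0522 to 0.0618).

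Whether the arms changed differently from day 0 was tested as an interaction, in which the lower start of the knockdown counts. All 4 comparisons share the groups of day 0. Jun changed more upwards or less downwards in the knockdown by 0.66 to day 1, and it was the 1 of 9 members called, with 0 the other way (0.0635% of all genes higher, 0.209% lower). At day 3 the members called were 2 higher and 0 lower (1.78% higher, 1.95% lower; after quantile scaling 142 genes were higher and 242 lower), namely Jun at 0.71 and Junb at 0.55. At day 5 they were 4 higher and 0 lower (4.39% higher, 3.38% lower), namely Fosl1 at 1.09, Maff at 1.01, Junb at 0.81 and Jun at 0.75. At day 7 they were 3 higher and 0 lower (3.92% higher, 2.46% lower), with Fosl1 at 1.22, Jun at 0.74 and Junb at 0.73. For Jun and Junb the arms differed at day 0 and were not called apart at any later day, while for Fosl1 the day 0 difference of -0.29 was not called (SE 0.15, adjusted p = 0.277) and the later one was. Junb at day 3 lost its call in 13 of 27 alternative fits (adjusted p = 0.0509 to 0.141), 12 of them without 1 library, and Maff at day 5 in 1 of 27, without the second knockdown library of day 5 (0.0561). Jun at day 1 lost it in the fit of the compared libraries alone (0.524). Fos at day 3 had a difference of -0.77 that was not called, but was in the compared libraries alone (0.0333) and without either knockdown library of day 7 (0.0397 and 0.0395). Without the first control library of day 1, the count of 1 at day 1 became 5 (Fosb, Fosl1, Fosl2, Jun and Junb).

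Levels were set side by side between members after division by the length of the exons in kb, the union over all annotated transcripts. The ranking depends on this length, which runs from 1.668 kb for Jund to 9.68 kb for Fosl2. By counts Fosl2 was above Jund at day 0, at 5055 and 3074 in the knockdown and 5606 and 3763 in the control. At day 0 Jund was highest per kb, at 1843 ± 12.1 in the knockdown and 2256 ± 44.0 in the control, followed by Junb at 1108 ± 8.32 in the knockdown and 1761 ± 88.4 in the control and Jun at 955 ± 11.3 in the knockdown and 1443 ± 16.3 in the control (SD, n = 2 each). Fosb was the lowest member, at 12.3 ± 0.32 per kb in the knockdown and 25.1 ± 2.17 in the control. Jund made up 34.2% of the summed level per kb of the 9 genes at day 0 in the knockdown and 31.1% in the control. At day 1 its share was 22.0% in the knockdown and 24.5% in the control, and its libraries overlapped those of Jun and Junb per kb in both arms. At day 5 the share of Jund was 47.1% in the knockdown and 57.9% in the control, and at day 7 49.6% in the knockdown and 57.2% in the control. The libraries of the arms did not overlap in that share on any day sampled, with the knockdown above the control at day 0 and below it on each later day. Fos made up 13.2% and 6.78% in the knockdown at days 1 and 3, against 11.9% and 11.7% in the control. Fosl1 held 4.19% at day 5 in the knockdown and 2.18% in the control.

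**Figure D3:**
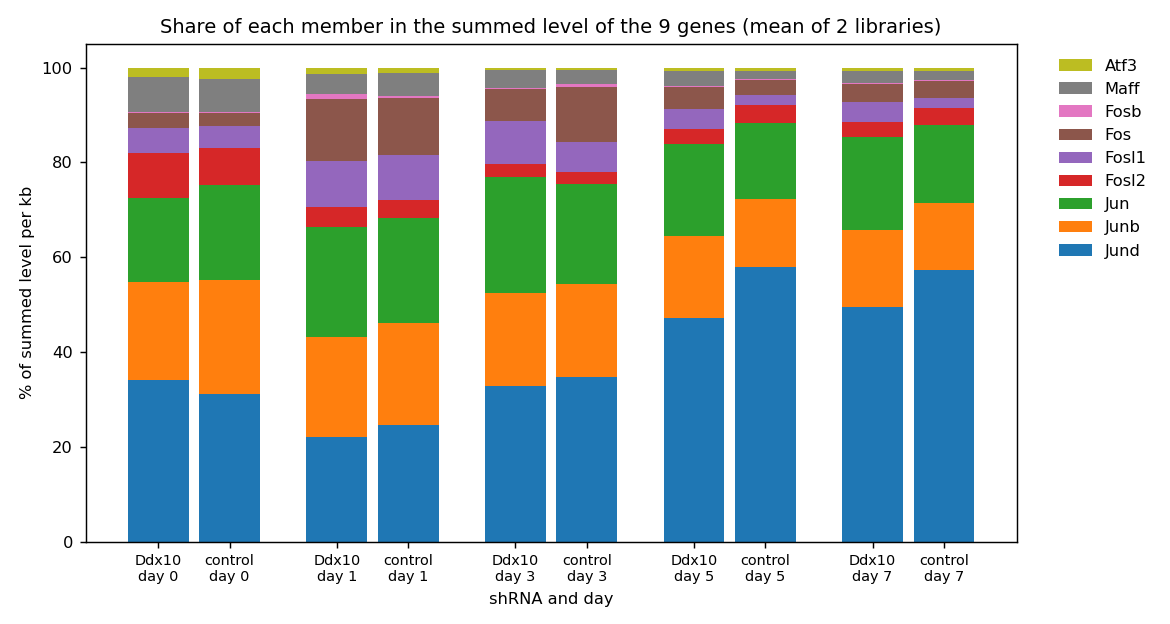
Share of each member in the summed level per kb of the 9 genes, in percent, as stacked bars for each arm and day (mean of 2 libraries). The Jund share grows to 47.1% with Ddx10 shRNA and 57.9% with control shRNA at day 5, and the Fos share at day 3 is 6.78% with Ddx10 shRNA and 11.7% with control shRNA.

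Across the 20 libraries the members were compared in pairs by the shape of their time course. Jun and Junb (Pearson r = 0.952), Fosl2 and Atf3 (0.947) and Junb and Maff (0.932) were the closest pairs on the log2 scale, and Fos with Fosb had r = 0.826. Jund ran against Fos (-0.826) and Fosl1 (-0.708). These are descriptions over libraries that share days and arms. Among genes with a mean of at least 50, those closest to the mean of the standardised members were Ppp1r15a (r = 0.981), a phosphatase subunit of the stress response, the kinase gene Akt1 (0.974), Arhgdia (0.974), Ehd2 (0.970) and the translation factor gene Eif3b (0.970). The closest gene to each member was Aurkb for Fos (0.946), Vars for Fosb (0.942), Elk3 for Fosl1 (0.992), Galnt18 for Fosl2 (0.988), Mfsd5 for Jun (0.956), Ppp1r15a for Junb (0.970), Ctdsp2 for Jund (0.978), Actr10 for Atf3 (0.985) and Ehbp1l1 for Maff (0.992).

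**Figure D4:**
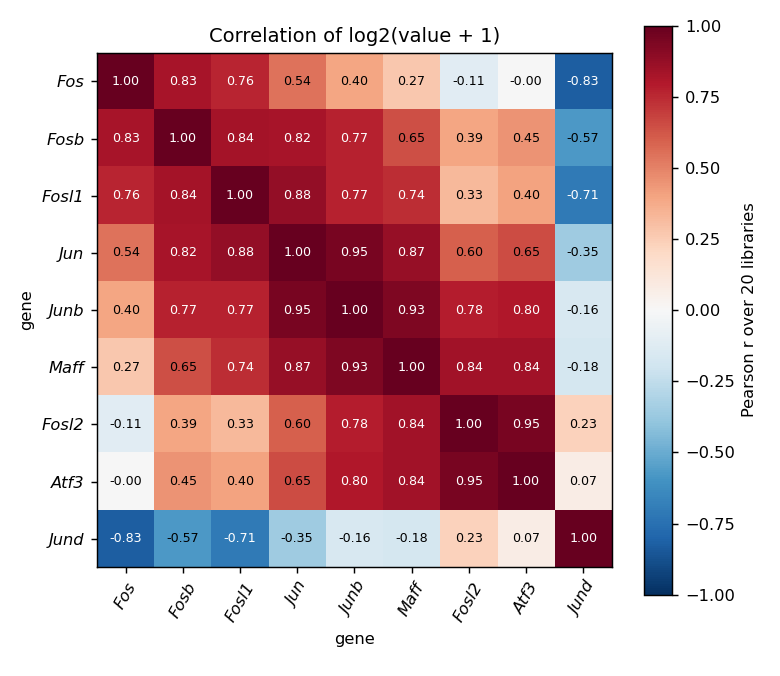
Pearson r of log2(value + 1) between members over the 20 libraries, in colour and as numbers. Jun with Junb (0.95), Fosl2 with Atf3 (0.95) and Junb with Maff (0.93) are the closest pairs. Maff also has 0.84 with both Fosl2 and Atf3. Jund has negative values with Fos (-0.83), Fosl1 (-0.71) and Fosb (-0.57).

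Around the members, genes that AP-1 is known to regulate were compared between the arms. At day 5 the list median was 0.57 on the log2 scale, with -0.01 over all genes. Of 26 such targets 14 were higher in the knockdown and none was lower (5.83% of all genes higher, 2.9% lower). They included the urokinase gene Plau (513 in the knockdown and 149 in the control, log2 1.78, SE 0.15, limma adjusted p = 1.14e-05), the growth factor gene Hbegf (0.93) and the chromatin gene Hmga2 (0.59). At day 7, 12 were higher and none lower (4.65% of all genes higher, 1.52% lower). At day 3, 4 were higher and none lower (2.51% of all genes higher, 2.25% lower). The targets at day 0 had 1 higher and none lower (2.49% of all genes higher, 0.812% lower), with a list median of -0.08. None was called at day 1 (0.0254% of all genes higher, 0.121% lower). With each library left out in turn the targets called were 9 to 16 at day 5, 8 to 13 at day 7 and 0 to 5 at day 3, where none passed without the first knockdown library of that day, and the fewest at days 5 and 7 came without the first knockdown library of day 5 and the second of day 7. From day 0 to day 7, 9 of the 26 targets rose and 14 fell in the knockdown, with 36.2% of all genes higher and 30.9% lower. In the control 5 rose and 18 fell, with 38.6% of all genes higher and 33.7% lower. Some of these targets are also made by fibroblasts in general. Of the fibroblast genes, 6 of 18 were higher and none lower in the knockdown at day 5 (5.83% of all genes higher, 2.9% lower). At day 7, 5 of 18 were higher and none lower (4.65% of all genes higher, 1.52% lower). The collagen cross-linking enzyme gene Lox led on both days. With each library left out the counts were 3 to 8 at day 5 and 2 to 7 at day 7, fewest without the first knockdown library of day 5 and the second of day 7. The summed level of the 18 was 198413 to 203470 in the knockdown and 164666 to 184530 in the control at day 5, with no gene at 0. The 16 epithelial and pluripotency genes summed to 14049 to 14897 in the knockdown and 22038 to 23838 in the control at that day, also with none at 0. Of these 16, 5 were called lower and 1 higher in the knockdown at day 5 (2 to 6 lower with each library left out). At day 7, 2 of them were lower and 1 higher. The part of these fibroblast and epithelial values in the differences of Fosl1, Maff and the targets was not tested.

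**Figure D5:**
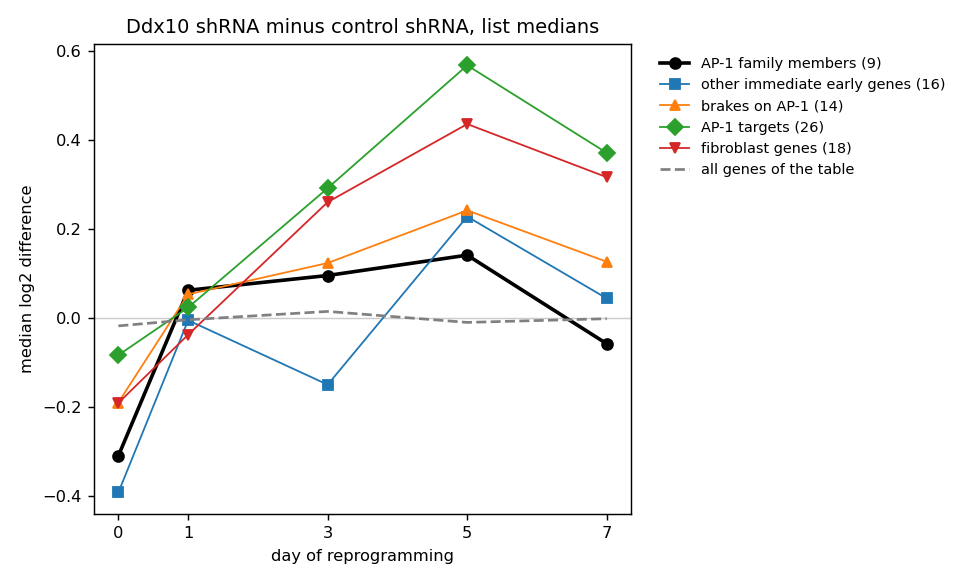
Median log2 difference, Ddx10 shRNA minus control shRNA, of the 9 members, of 4 lists of related genes and of all genes, against the day. The AP-1 targets reach 0.57 at day 5, the members 0.14, and other immediate early genes stand at -0.39 at day 0.

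Genes that restrain MAP kinase signalling or AP-1 were compared next. At day 0, 2 of 14 were lower and none higher (0.812% of all genes lower, 2.49% higher). These were the Sprouty gene Spry2 (-0.44) and the phosphatase gene Dusp5 (-0.51), and none passed without the first knockdown library of day 0. At day 5, 6 of 14 were higher and none lower (4 to 7 higher with each library left out), against 5.83% of all genes higher and 2.9% lower. The ERK phosphatase genes Dusp4 (1821 in the knockdown and 899 in the control, log2 1.02, SE 0.08, limma adjusted p = 1.14e-05) and Dusp6 (0.87) and the Sprouty gene Spry4 (0.73) led the list. At day 7, 5 were higher and none lower (4.65% of all genes higher, 1.52% lower), with Spry4 at 0.89. Of the 20 kinases and factors that signal to AP-1, the ternary complex factor gene Elk3 alone was called at day 5 (1579 in the knockdown and 1206 in the control, log2 0.39, SE 0.07, adjusted p = 0.00160), and it was the 1 call at day 7 as well, which was lost without the second knockdown library of that day. In the control, 11 of these 20 had fallen and 4 risen by day 7 (33.7% of all genes lower, 38.6% higher). The serum response factor gene Srf was at 737 on day 7 and 2668 on day 0.

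Of the other immediate early genes, 5 of 16 were lower in the knockdown at day 0 and none higher (0.812% of all genes lower, 2.49% higher). They were led by Nr4a1 (2087 in the knockdown and 3914 in the control, log2 -0.91), Egr1 (-1.54) and Btg2 (-0.64). The list median was -0.39, and 4 to 8 were lower with each library left out. At day 3, Ier2 (-0.54) and Egr1 (-0.65) were lower, as were Fos and Fosb, and Ctgf (0.74) was higher (2.25% of all genes lower, 2.51% higher). Neither of the lower calls of this list was kept without the first knockdown library of day 3. At day 5, 4 were higher and 1 lower (5.83% of all genes higher, 2.9% lower), with Ctgf at 1.00 and Cyr61 at 0.67 higher and Btg2 at -0.59 lower. With each library left out 2 to 4 were higher, fewest without the first control library of day 5. Myc is on this list and its counts include any from the virus. Among 9 heat shock genes 2 were higher in the knockdown at day 0, and none lower (2.49% of all genes higher, 0.812% lower). Macrophage markers, 12 of 14 in the table, summed to 4036 to 4168 in the knockdown and 2799 to 4093 in the control at day 0, with no marker at 0, and to 297 to 713 at later days, when Tyrobp was at 0 in both libraries of 5 groups. None of the 12 was called between the arms at day 0. Their part in the decline of the members after day 0 was not tested. Of 12 other basic leucine zipper genes, Maf was higher in the knockdown at day 5 (0.66) and day 7 (0.73), and the antioxidant factor gene Nfe2l2 was lower at day 7 (-0.25). Of all genes, 4.65% were higher and 1.52% lower at day 7. No call of this list was left at day 5 or day 7 without either knockdown library or the first control library of that day.

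Several members overlap another gene on the opposite strand (GENCODE M21, GRCm38). Jun (chr4:95049034-95052222, minus strand) overlaps Junos, Junb (chr8:84974484-84978718, minus strand) overlaps Prdx2, Jund (chr8:70698949-70700616, plus strand) overlaps Gm11175 and Fosl1 (chr19:5447547-5455946, plus strand) overlaps Ccdc85b. Whether reads were counted by strand is not given in the sources used here, so reads from any bases shared by exons of a pair cannot be told apart. The overlaps are of whole gene spans, and overlap of exons was not determined. Atf3 overlaps Gm24748. Prdx2, Ccdc85b and Junos were not called between the arms on any day or as the mean of days. Gm11175 stood at 263 in the knockdown and 348 in the control at day 7 (log2 -0.41, SE 0.18, adjusted p = 0.229) and was lower as the mean of days (-0.34, SE 0.08, limma adjusted p = 0.00795), in the direction of Jund.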

How the data were processed

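RNA was sequenced from 20 libraries of reprogramming fibroblasts, 2 for each arm and day. The authors deposited a signal for 15757 genes, their read counts after normalization. Tools named, per the submitters' processing notes, are DESeq2 1.22.0, RSEM 1.2.22, STAR 2.5.2a and Trim Galore 0.4.4, with the mm10 build and no order or role. How counts were normalized, which annotation was used and how genes were filtered is not given in the sources used here. The values cluster at a step per library, but only 44.7 to 63.45% of low values lie within 0.1 of whole steps, so reads were not recovered. Replicates are described as biological without saying whether they were separate cultures. The p-values then measure the spread between these libraries, which may be technical.

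Values were taken as log2(value + 1), which understates changes of low genes. One limma 3.58.1 fit (R 4.3.3; empirical Bayes with trend and robust settings) of 10 group means over all 20 libraries gave 18 comparisons, adjusted by the method of Benjamini and Hochberg over all genes at a threshold of 0.05. The median standard error was 0.156 for a single day and 0.22 for the difference between arms. The code was checked on simulated data. Alternatives were quantile scaling, pseudocounts of 0.1 and 5, genes with a mean of at least 10, the replicate number as a block, library weights, the compared libraries alone, and each library left out. Members, lists and tests were chosen with earlier results of these data known. All members are described, and from each other list at most the 3 genes of smallest p in the comparison. Genes of like pattern are the 5 closest to the members' mean and the closest to each member. Levels per kb use the union of GENCODE M21 exons. Promoter sequences are from RefSeq. A gene that the rule would name is not reported here.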

Additional observations from a re-analysis of the deposited data

Results flagged for a closer look

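The change from day 0 differed between the arms for Jun, Junb, Fosl1 and Maff by the interaction test in limma, each time upwards in the knockdown relative to the control. For Jun the difference was 0.66 to day 1 (limma adjusted p = 0.00823), 0.71 to day 3 (0.00319), 0.75 to day 5 (0.000624) and 0.74 to day 7 (0.000959). For Junb it was 0.55 to day 3 (limma adjusted p = 0.0384), 0.81 to day 5 (0.00284) and 0.73 to day 7 (0.00663). For Fosl1 it was 1.09 to day 5 (limma adjusted p = 0.00534) and 1.22 to day 7 (0.00435), and for Maff 1.01 to day 5 (0.0110). The tests share the libraries of day 0, where the knockdown was lower than the control for Jun and Junb, and where Fosl1 (log2 -0.29, adjusted p = 0.277) and Maff (-0.31, 0.264) were not called. Fos went the other way to day 3, at -0.77, and passed only in some of the alternatives.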

How the results depend on the processing

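Of 87 calls among the members' 162 results, 67 were kept under every alternative. Quantile scaling turned the change of Jund to 0.24 at day 7 in the control (limma adjusted p = 0.00987) and to 0.19 at day 5 in the knockdown (0.0340). Between the arms, 2 members were called at day 0 under quantile scaling and 0 in the compared libraries alone. Of the differences in change, day 1 gave 3 members with a pseudocount of 0.1, 2 with a pseudocount of 5, 2 among genes with a mean of at least 10 and 0 in the compared libraries alone. Day 3 gave 1 under quantile scaling and 4 in the compared libraries alone, of which Fos was lower (-0.77, limma adjusted p = 0.0333). Fos was also called lower without either knockdown library of day 7 (0.0397 and 0.0395). With each library left out, the members called between the arms numbered 2 to 4 at day 0, 0 to 1 at day 1, 0 to 3 at day 3 (0 without the second control library of day 3) and 1 to 3 at day 7, and for the differences in change 1 to 5 at day 1 and 1 to 4 at day 3. The cause was not tested.

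The counts over all genes behind these shares moved too. Between the arms, 521 genes at day 0 became 304 under quantile scaling, 2 in the compared libraries alone and 100 to 1136 with a library left out. The 23 genes of day 1 became 0 to 743 over the alternatives, the 751 of day 3 became 74 to 1390, the 1376 of day 5 reached 459 to 2188 and the 972 of day 7 reached 286 to 2127. Of the differences in change, the 43 genes of day 1 became 1 to 662 and the 587 of day 3 became 384 under quantile scaling, with 142 higher and 242 lower, 357 in the compared libraries alone and 35 to 1116 with a library left out. The 1224 genes of day 5 became 415 to 1857 and the 1005 of day 7 became 283 to 1613 with a library left out.

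Within a day, deviations of the knockdown and control libraries with the same replicate number correlated at -0.141, 0.178, 0.0158, -0.0163 and 0.0417 on days 0, 1, 3, 5 and 7. Pairing of libraries across days was not tested. The replicate block ended 1 member call, that of Fosb at day 0 (limma adjusted p = 0.0659). Counts of the related lists with a library left out were an alternative chosen after seeing the data. With 2 libraries a group, differences under about 0.156 on the log2 scale lie within 1 typical standard error.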
